A study of Gossypium hirsutum with 18 samples.

Results

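In the roots of Acala SJ-2 (SJ2) and Acala NemX (NemX), a susceptible and a resistant cultivar of upland cotton (Gossypium hirsutum), 19 of 54508 listed genes were silent in one cultivar and expressed in the other. A gene was taken as silent in a line when its normalized value was below 0.5 in all 6 libraries of the line, and as expressed when it was at least 3 in all 6. Of these, 18 genes were silent in NemX and expressed in SJ2, and 1 gene, Gohir.D11G295850, was silent in SJ2 and expressed in NemX. The count of 1 rested on a single SJ2 library and became 12 without it. Because these genes were chosen by their values in SJ2 and NemX, those values are given as a description and were not tested. The choice did not use the level in WMJJ, the third line, or the place of each gene on the chromosomes. It did bound the change with nematode infestation in SJ2 and NemX, since a gene had to keep its state in control and infested roots alike.

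Root RNA was sequenced from SJ2, NemX and Wild Mexico Jack Jones (WMJJ), which is moderately resistant to the root-knot nematode (RKN) Meloidogyne incognita. Each line had 3 control libraries (ctl, water only) and 3 libraries from infested roots (rkn, 5000 second-stage juveniles per plant at 12 days of age, roots collected at 23 days), which makes 6 groups of 3 and 18 libraries. The lines are cultivars that differ at many places in the genome, so a difference between lines is a difference between whole cultivars. The methods describe the 3 libraries of a group as biological replicates, and how plants were assigned to them is not given in the sources used here.

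Upland cotton carries 2 sets of chromosomes, the A and the D subgenome, and most genes exist as a pair of close copies (homoeologs), one on each. The identifiers used here give the chromosome (A01 to A13, D01 to D13) and the order of genes along it. Root-knot nematodes enter near the root tip, settle by the vascular tissue and make the plant form giant cells and galls, from which they feed. Resistance in plants is often carried by receptor genes that differ between cultivars in presence or in activity. RNA sequencing scores transcripts that match the reference transcripts of another cultivar, TM-1, and does not see the gene itself. The 19 genes carry no name in the deposited table, and none of the listed identifiers was matched to the RefSeq gene table, so each is called by its identifier and no role is given to it.

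The values were normalized by the study's authors and sum to between 852215 and 1096547 per library. Low values piled up at one smallest step in each library, taken here as the value of about 1 read. It lay between 0.0800 and 0.358, so that a value of 0.5 stood for about 1.40 to 6.25 reads and a value of 3 for about 8.39 to 37.5 reads, depending on the library. In each group 1 library was clearly deeper than the others, replicate 1 in NemX_rkn and replicate 3 in the other groups.

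One library stood apart in a way that bears on the count of genes silent in SJ2. With the infested SJ2 replicate 3 left out, 12 genes instead of 1 were silent in SJ2 and expressed in NemX. The 11 added genes were below 0.5 in the other 5 SJ2 libraries and at 0.741 to 4.15 in that library, which was 5.79% to 35.4% of their NemX mean with a median of 17.7%. For the other 17 libraries, between 0% and 8.86% of the genes that were silent in the 5 other libraries of the line and expressed in another line reached 0.5 in the library itself. For the infested SJ2 replicate 3 the share was 91.7% of 12 genes against NemX and 22.2% of 45 genes against WMJJ. This library was also the deepest of SJ2, but replicate 3 of the SJ2 controls, the next deepest, had 0 such genes against either line. What these values come from was not tested. Results on SJ2 that turn on this library are given with and without it.

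**Figure D1:**
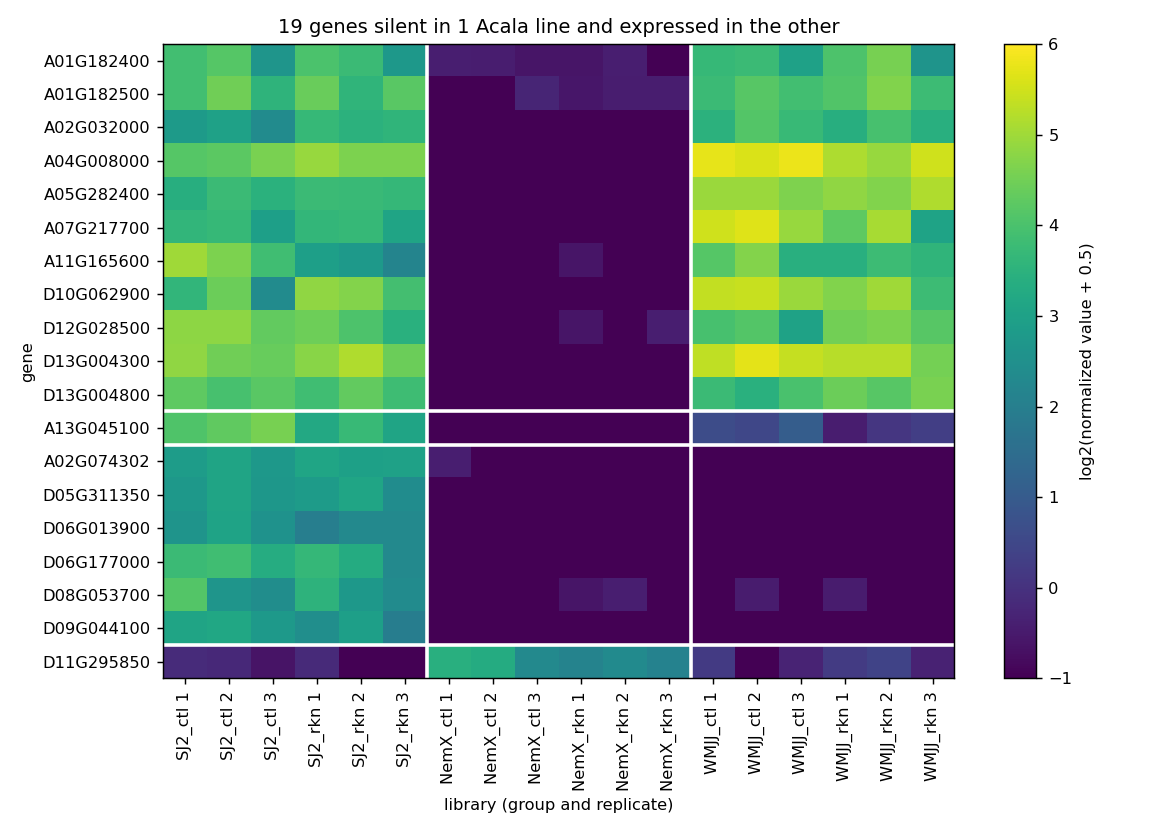
Heat map of the 19 genes (rows) in the 18 libraries (columns, by line and treatment), coloured by log2 of the normalized value plus 0.5. From the top, the blocks are 11 genes silent in NemX and expressed in WMJJ, 1 between the limits in WMJJ, 6 silent in NemX and WMJJ, and the 1 gene silent in SJ2.

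Gohir.D11G295850 was the single gene silent in SJ2 and expressed in NemX when all libraries were used. In NemX it stood at 10.2, 9.44 and 4.38 in the controls and at 3.87, 4.58 and 3.81 in the infested roots. In SJ2 it stood at 0.410, 0.370 and 0.147 in the controls and at 0.386, 0 and 0 in the infested roots. The lowest NemX library was therefore 3.81 and the highest SJ2 library 0.410, close to both limits of the rule. In WMJJ its 6 values ran from 0 to 0.821 with a median of 0.477, which is neither silent nor expressed by the rule, and all of them lay below the 6 NemX values. It made up 0.00330% of the 30337 genes expressed in NemX. In the infested SJ2 replicate 3 the gene was listed at 0. Leaving that library out could not remove it, since a gene that passes in all libraries passes in any part of them.

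Around Gohir.D11G295850 on chromosome D11, the neighbouring genes also tended to stand higher in NemX. Of the 10 listed genes nearest to it, 5 on each side, 5 had all 6 NemX libraries above all 6 SJ2 libraries, against 4.89% of all listed genes. Gohir.D11G295500 ran from 6.45 to 16.1 in SJ2 and from 23.4 to 29.6 in NemX, and Gohir.D11G295400 from 0 to 1.80 in SJ2 and from 3.58 to 11.2 in NemX. In WMJJ both were near the SJ2 level, at 6.38 to 10.3 and 0.226 to 2.94. The genes are neighbours and need not vary independently, and the neighbours were not picked by their values.

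Chromosome D11, with its homoeolog A11, is also where the study looked for NemX resistance, and it put forward a pair of genes of the TIR-NBS-LRR class, a family of intracellular immune receptors. Neither was silent in any line. Gohir.D11G312800 stood at 6.81 to 10.1 in SJ2, 17.5 to 33.6 in NemX and 3.25 to 5.72 in WMJJ, and Gohir.A11G297600 at 40.6 to 55.4, 92.9 to 126 and 54.0 to 100.1. Between Gohir.D11G295850 and Gohir.D11G312800 lay 163 listed genes. On A11 the 1 gene silent in NemX, Gohir.A11G165600, was 1079 listed genes away from Gohir.A11G297600. Chromosome D02, where the paper places a resistance gene of WMJJ, held 0 of the 19 genes and 3.72% of all listed genes.

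The 11 genes that passed only without the infested SJ2 replicate 3 were found after their values had been seen. Gohir.A11G060200 was listed at 0 in 5 SJ2 libraries and at 2.98 in the infested replicate 3, against 12.9 to 33.7 in NemX. Gohir.A07G032000 was likewise listed at 0 in 5 SJ2 libraries and at 2.89 in the infested replicate 3, against 4.59 to 13.7 in NemX. In WMJJ the first reached at most 0.274 and the second was listed at 0 in all 6 libraries. Both were thus transcribed in NemX, absent or nearly so in WMJJ, and seen in 1 of 6 SJ2 libraries.

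The other 9 of these 11 genes had a signal in WMJJ. Gohir.A13G194300 stood at 15.6 to 33.7 in NemX and 17.0 to 24.2 in WMJJ, Gohir.A07G043000 at 14.7 to 26.5 and 13.3 to 22.8, and Gohir.A03G033600 at 8.14 to 11.6 and 4.36 to 12.4. Their values in the infested SJ2 replicate 3 were 4.15, 3.47 and 1.82, and they reached at most 0.406, 0.496 and 0.440 in the other 5 SJ2 libraries. Gohir.A02G178800, Gohir.A13G106433 and Gohir.D06G172350 were also expressed in all 6 WMJJ libraries, which makes 6 of the 11, and Gohir.A11G023200, Gohir.D05G367800 and Gohir.D05G373750 lay between the limits there. No gene that was silent in all 6 SJ2 libraries and expressed in all of NemX was expressed in all of WMJJ, a count of 0 that rests on the same library.

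**Figure D2:**
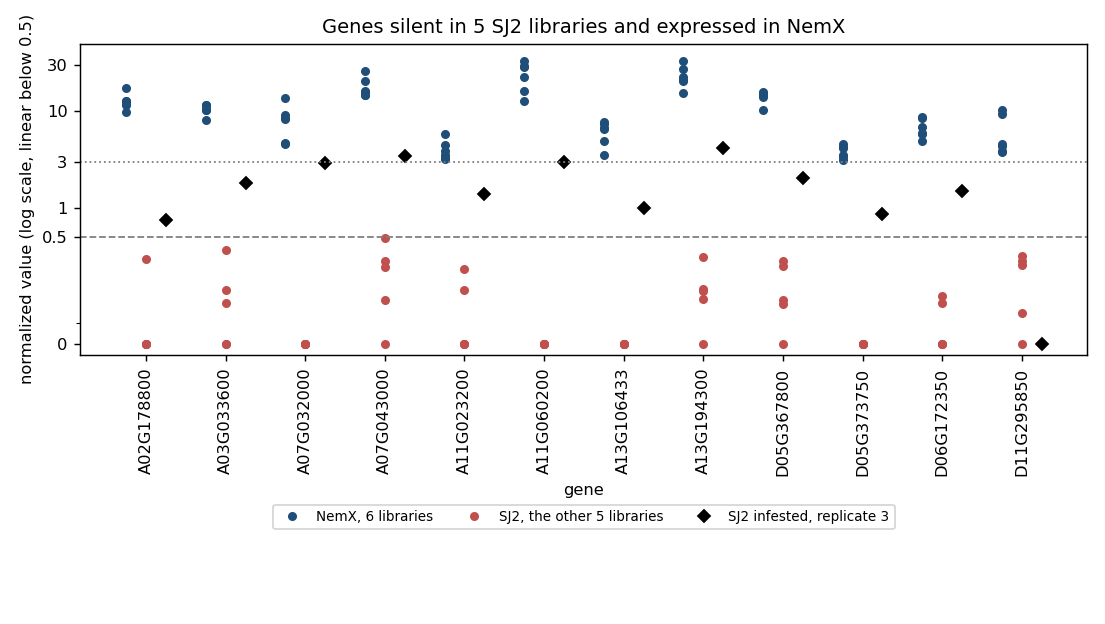
Normalized values of the 12 genes that were below 0.5 in 5 SJ2 libraries and at least 3 in all NemX libraries (y axis logarithmic above 0.5 and linear below, each point 1 library, dashed line 0.5, dotted line 3). The infested SJ2 replicate 3 (diamonds) lies between 0.741 and 4.15 for 11 of the genes and at 0 for Gohir.D11G295850.

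In NemX the 18 genes that SJ2 alone of the Acala lines expressed were at or near 0. Of their 108 NemX values 93 were listed at 0, and 12 of the 18 genes were listed at 0 in all 6 NemX libraries. The highest NemX value of any of them was 0.330, in Gohir.A01G182500, and 14 of the 15 values above 0 lay within 10% of the value of 1 read. In SJ2 their means ran from 5.18 (Gohir.D06G013900) to 25.6 (Gohir.D13G004300). The 18 made up 0.0607% of the 29654 genes expressed in SJ2. Leaving out a library removes a condition of the rule, so it can add genes but cannot remove any. With each of the 12 SJ2 and NemX libraries left out in turn, 18 to 20 genes passed. Without the infested SJ2 replicate 3 the directions stood at 20 and 12 genes rather than 18 and 1.

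The counts also depended on which libraries were used. From the 6 control libraries of both lines alone, 53 genes were silent in SJ2 and expressed in NemX, and 32 genes the other way round. Of the 52 genes so added to the first direction, 15 were at 3 or more in all 3 infested SJ2 libraries, and 22 stayed below 0.5 in infested replicates 1 and 2. Of the 14 added to the second direction, 10 stayed below 0.5 in all 3 infested NemX libraries. From infested libraries alone the counts were 4 and 25, and 26 and 31 without the infested SJ2 replicate 3.

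WMJJ divided the 18 genes into a group that it shared with SJ2 and a group that it shared with NemX. In WMJJ 11 of the 18 were expressed, 6 were silent and 1, Gohir.A13G045100, lay between the limits. Over all genes expressed in SJ2, 91.2% were expressed, 0.243% silent and 8.56% between the limits in WMJJ. The 6 genes were 33.3% of the 18 and 8.33% of the 72 genes that were silent in WMJJ and expressed in SJ2. The 11 genes were 61.1% of the 18 and 25.0% of the 44 genes that were silent in NemX and expressed in WMJJ. The lists share SJ2 or NemX libraries, so these shares are a description.

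The 11 genes expressed in SJ2 and WMJJ, with a gap in NemX alone, were Gohir.A01G182400, Gohir.A01G182500, Gohir.A02G032000, Gohir.A04G008000, Gohir.A05G282400, Gohir.A07G217700, Gohir.A11G165600, Gohir.D10G062900, Gohir.D12G028500, Gohir.D13G004300 and Gohir.D13G004800. Of these 7 are on A chromosomes and 4 on D chromosomes. These 11 were set apart by their WMJJ values, all at least 3, so their levels there are a description. The ratio of the WMJJ mean to the SJ2 mean ran from 0.846 to 2.90 with a median of 1.41, beside a median of 1.00 over all 27044 genes expressed in both lines.

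Gohir.A05G282400 had 9.88 at the lowest, 12.6 at the median and 13.2 at the highest of the 6 SJ2 libraries, and 24.4, 29.2 and 35.6 in WMJJ. It was the only one of the 11 whose 6 WMJJ values all lay above the 6 SJ2 values, a pattern seen in 3.58% of genes expressed in both lines. The reverse, all WMJJ below all SJ2, was seen in 0 of the 11 and in 3.25% of those genes. Gohir.A07G217700 had the highest ratio, with 7.28, 11.7 and 12.5 in SJ2 against 7.85, 31.5 and 50.4 in WMJJ, but its lowest WMJJ library, the infested replicate 3, fell inside the SJ2 range. Gohir.A04G008000 ran from 17.3 to 29.9 in SJ2 (median 23.9) and from 29.7 to 55.4 in WMJJ (median 46.4), an overlap of a single library on each side. Gohir.D12G028500 was the only one of the 11 with a lower mean in WMJJ, 17.3 ± 5.79 (SD, n = 6) against 20.4 ± 6.68 (SD, n = 6), and its ranges overlapped.

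The 6 genes silent in NemX and in WMJJ were Gohir.A02G074302, Gohir.D05G311350, Gohir.D06G013900, Gohir.D06G177000, Gohir.D08G053700 and Gohir.D09G044100, so that of the 3 lines SJ2 alone transcribed them. Here 1 is on an A chromosome and 5 are on D chromosomes. Gohir.D05G311350, Gohir.D06G013900, Gohir.D06G177000 and Gohir.D09G044100 were listed at 0 in all 12 libraries of NemX and WMJJ. Gohir.A02G074302 was listed at 0 in all but 1 of these 12, the NemX control replicate 1 at 0.251. Gohir.D08G053700 had 4 values above 0 among the 12, the highest 0.256.

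These 6 genes were also low in SJ2, with means of 5.18 to 10.4, whereas the 11 genes shared with WMJJ had SJ2 means of 8.92 to 25.6. Gohir.A02G074302 was the steadiest of them, with 6.16, 7.44 and 8.21 at the lowest, median and highest SJ2 library. Gohir.D06G177000 ran from 4.44 to 14.0 with a median of 10.8. Gohir.D08G053700 was the most uneven, with 16.9, 5.76 and 4.89 in the SJ2 controls and 11.1, 6.19 and 4.68 in the infested roots. An expression limit of 5 in place of 3 left 1 of the 6, Gohir.A02G074302, among 10 genes silent in NemX.

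Gohir.A13G045100 was the gene that WMJJ placed between the groups. Its SJ2 values were 16.5, 19.1 and 23.3 in the controls and 8.90, 12.6 and 8.08 in the infested roots. In WMJJ the controls stood at 1.04, 0.906 and 1.59 and the infested roots at 0.238, 0.571 and 0.736, and NemX was listed at 0 throughout. The WMJJ mean was 0.846 ± 0.458 (SD, n = 6) and that of SJ2 14.7 ± 5.96 (SD, n = 6), with no overlap.

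**Figure D3:**
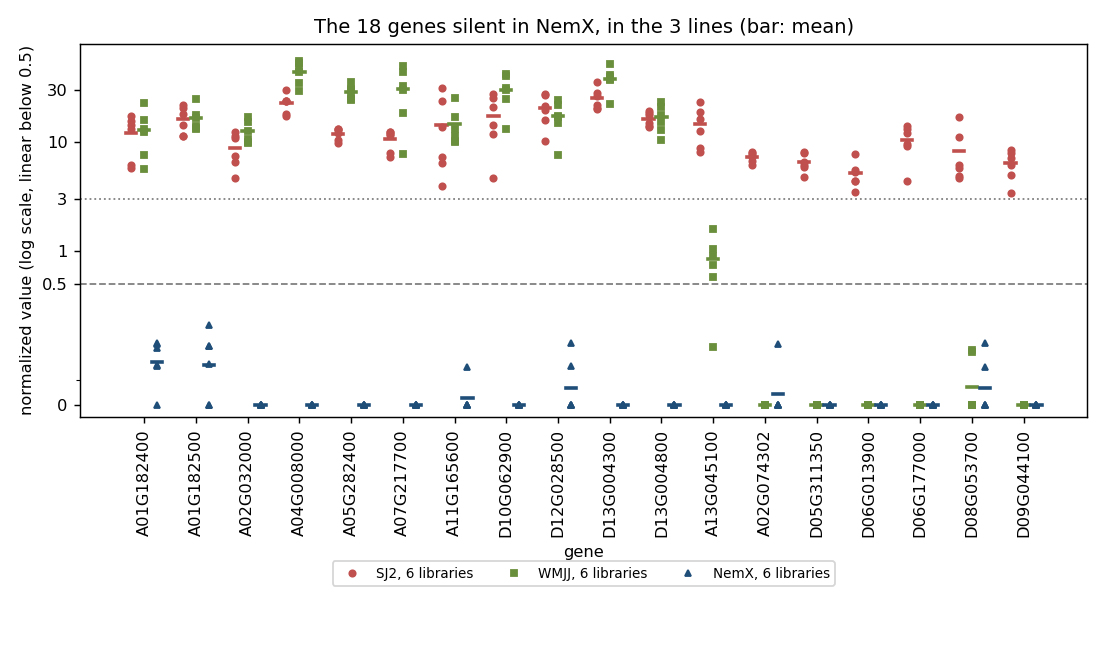
Normalized values of the 18 genes silent in NemX, with SJ2, WMJJ and NemX side by side (each point 1 of 6 libraries, bar the mean, y axis logarithmic above 0.5 and linear below, dashed line 0.5, dotted line 3). The first 11 genes reach SJ2 levels in WMJJ, Gohir.A13G045100 lies at 0.238 to 1.59 there, and the last 6 stay at or below 0.224.

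The lowest values of these genes were often those of the deepest library. In the SJ2 controls the deepest library gave the lowest of the 3 values for 14 of the 18 genes, beside 34.9% of all genes expressed in SJ2, and in infested SJ2 again for 14 of the 18, beside 35.0%. Gohir.A01G182400, for example, stood at 14.3, 17.3 and 5.83 in the SJ2 controls and at 15.7, 13.2 and 6.15 in the infested roots, with replicate 3 the lowest in both. In WMJJ the deepest library was lowest for 6 of the 11 in each treatment, beside 34.8% of genes expressed in WMJJ in the controls and 36.6% in the infested roots. The part of depth in these values was not tested. Depth cannot be told apart here from the library kit or the sequencer, which are not given per library.

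Over the genome the 18 genes were spread thinly. They fell on 14 of the 26 chromosomes, 9 genes on the A and 9 on the D subgenome, where 49.0% and 50.6% of all listed genes lie. No chromosome held more than 2 of them. A01, A02, D06 and D13 had 2 each, and in A01 and D13 these stood together. On A02 the pair was 349 listed genes apart and on D06 1371.

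Gohir.A01G182400 and Gohir.A01G182500 are next to each other in the gene order of A01. The first had 5.83, 13.8 and 17.3 at the lowest, median and highest SJ2 library and 5.71, 12.8 and 23.0 in WMJJ, and the second 11.3, 16.2 and 21.8 in SJ2 and 13.2, 15.5 and 25.0 in WMJJ. In NemX their highest values were 0.256 and 0.330, and unlike most of the 18 they were above 0 in 5 and 4 of 6 NemX libraries. The genes on both sides were alike in the lines. Gohir.A01G182300 had means of 12.8 in SJ2, 11.4 in NemX and 12.8 in WMJJ, Gohir.A01G182580 on the other side had 0.646, 0.454 and 0.462, and the next gene, Gohir.A01G182600, had 4.18, 3.67 and 3.93. The drop in NemX thus covered these neighbours and neither of the genes at their sides.

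On D13 the gap was wider. Gohir.D13G004300 and Gohir.D13G004800 were listed at 0 in all 6 NemX libraries, with 20.2, 24.2 and 35.6 and 13.8, 16.5 and 19.4 at the lowest, median and highest SJ2 library. They are separated by 1 listed gene, Gohir.D13G004700, which ran from 1.57 to 5.36 in SJ2 and was at most 0.355 in NemX, and so missed only the expression limit. Seen along the gene order, 9 consecutive listed genes from Gohir.D13G004200 to Gohir.D13G005500 had an SJ2 mean of at least 0.5 and at least 4 times the NemX mean. This stretch was noticed after the values had been seen, and it includes the genes used to find it. By the same measure 702 genes (1.29% of those listed) stood higher in SJ2 genome-wide, and the next longest stretch held 3 genes. In the other direction 712 genes did so and the longest stretch held 5.

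Within this stretch NemX was not uniformly empty. Gohir.D13G004200 and Gohir.D13G005300 were listed at 0 in all 6 NemX libraries, with means of 1.76 and 0.548 in SJ2. The mean of Gohir.D13G004200 came from infested SJ2, at 4.53, 2.55 and 3.08. Its SJ2 controls were at 0.203, 0.183 and 0. Gohir.D13G005200 and Gohir.D13G005400 reached 0.156 and 0.342 in NemX, with means of 4.06 and 2.23 in SJ2. Gohir.D13G005100 differed from the rest, with NemX values of 3.09, 4.05 and 4.99 in the controls and 10.6, 0.251 and 3.02 in the infested roots, against 14.9 to 25.0 in SJ2. WMJJ transcribed all 9 genes, with means from 0.544 to 38.5. The gap thus belonged to NemX, except that Gohir.D13G004200 was near 0 in control SJ2 roots as well.

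The edges of the stretch were sharp on one side. Gohir.D13G004100, just before it, had means of 8.72 in SJ2, 10.3 in NemX and 11.6 in WMJJ, and the 3 listed genes before that were likewise at comparable levels. After it, Gohir.D13G005600 stood at 2.37, 3.83 and 2.88, and Gohir.D13G005700 again low in NemX at 0.514 against 4.03 in SJ2 and 16.9 in WMJJ. Gohir.D13G005500 and Gohir.D13G005700 were the genes here that stood higher in WMJJ than in SJ2 in every library, with 6.80 to 17.2 against 0.927 to 2.57 and 11.2 to 26.9 against 1.41 to 7.999.

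**Figure D4:**
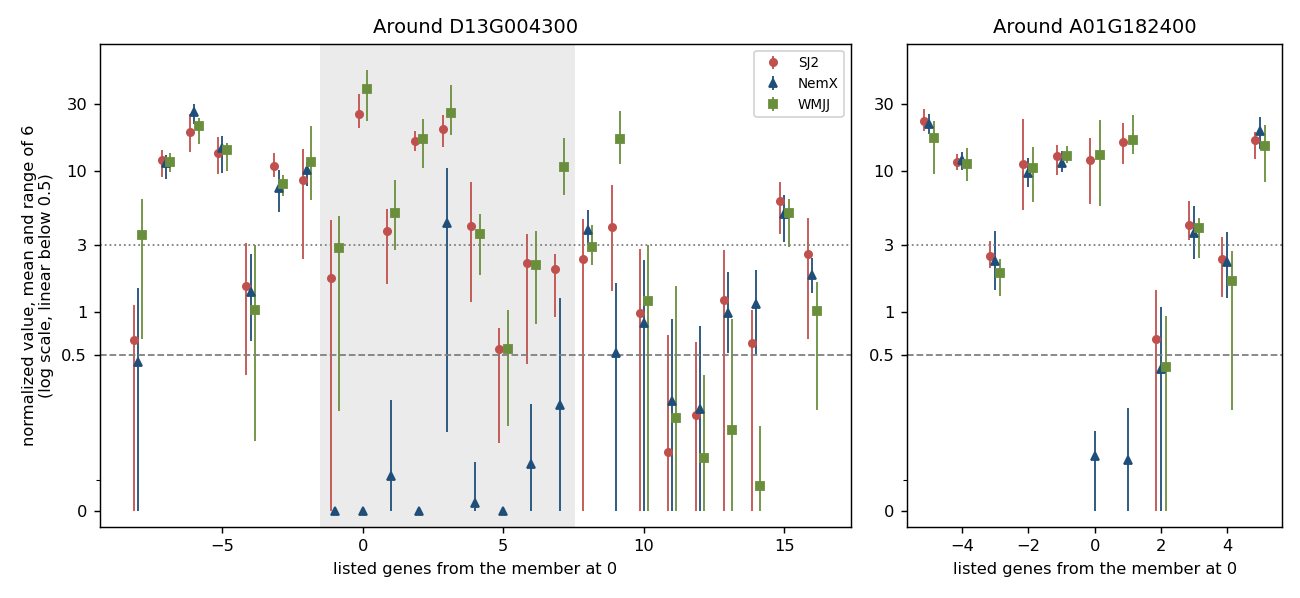
Mean and range of 6 libraries per line for listed genes in the order of their identifiers around Gohir.D13G004300 (left, stretch of 9 genes shaded) and Gohir.A01G182400 (right), with the y axis logarithmic above 0.5 and linear below. NemX drops across the shaded genes, with Gohir.D13G005100 at a mean of 4.33, whereas on A01 only 2 neighbouring genes drop.

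Around the other members the gap was mostly one gene wide. Among the 161 distinct genes within 5 listed places of the 18, 9 had all 6 NemX libraries below all 6 SJ2 libraries (5.59%), beside 2.43% of all listed genes, and 5 of the 9 were on D13. Without the D13 neighbours it was 4 of 150 (2.67%). More than 9 of the 161 genes went the opposite way, with all 6 NemX libraries above all 6 SJ2 libraries. Their share was also above the 4.89% of all listed genes. Among them were Gohir.A05G282800, at 23.2 to 192 in SJ2 and 556 to 1790 in NemX, and Gohir.A13G045700, at 6.11 to 10.2 and 13.3 to 22.3. On A02, Gohir.A02G074301 next to Gohir.A02G074302 was listed at 0 in all NemX and all WMJJ libraries and ran from 0.377 to 2.28 in SJ2, so these neighbours had the same pattern over the 3 lines. For 11 of the 18 genes no gene within 5 places stood lower in NemX in every library.

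Infestation was compared with control within each line by limma on log2 of the value plus 0.5, fitted over all 46813 genes with a mean of at least 1, and a gene was called when its log2 fold change exceeded 1 in size with an adjusted p (Benjamini-Hochberg) under 0.01. NemX was not examined for the 18 genes, being silent. In SJ2 1 of the 18 was called, Gohir.A11G165600, and 14.0% of all genes tested were. Because the 18 had to be at least 3 in every SJ2 library of both treatments, which leaves out genes that infestation switched off or on, nothing is read from these shares. Before adjustment 5 of the 18 had p below 0.05 in SJ2, and 38.6% of all genes did. In WMJJ the 6 silent genes had no level to change. Of the other 12, 0 were called in WMJJ, beside 10.4% of all genes, and 5 had an unadjusted p below 0.05, beside 34.0% of all genes. The calls over all genes in SJ2 were 3787 up and 2770 down, and 3063 up and 3992 down with all libraries scaled to equal totals.

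Gohir.A11G165600 fell in infested SJ2 roots. In whole roots, fewer cells of a type and less RNA per cell cannot be told apart. Its controls stood at 31.5, 24.1 and 13.8 and its infested roots at 7.26, 6.43 and 3.96, with no overlap. The log2 fold change was -1.85 (SE 0.32, limma adjusted p = 1.69e-04), in a background of 5.92% of genes called down in SJ2. Without the infested replicate 3 it was -1.61 (adjusted p = 0.00163). In WMJJ the same gene stood at 17.2, 25.6 and 10.2 in the controls and at 10.1, 13.3 and 11.5 in the infested roots, which overlapped, at a log2 fold change of -0.50 (SE 0.32, limma adjusted p = 0.306). The difference between the lines, WMJJ minus SJ2, was 1.36 (SE 0.46, limma adjusted p = 0.0718), so the responses were not shown to differ.

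Other members came near a call in SJ2 without reaching it. Gohir.A02G032000 stood at 6.52, 7.54 and 4.66 in the controls and at 12.5, 10.8 and 11.5 in infested SJ2, a non-overlapping difference of 0.87 on the log2 scale (SE 0.25, limma adjusted p = 0.0119). Gohir.A13G045100, whose values are given above, had a log2 fold change of -0.97 (SE 0.29, limma adjusted p = 0.0155), and passed both limits with all libraries scaled to equal totals, at -1.14 (adjusted p = 0.00450). Gohir.D10G062900 stood at 11.8, 21.0 and 4.69 in the controls and at 27.9, 25.4 and 14.5 in infested SJ2, at a log2 fold change of 1.00 (SE 0.38, limma adjusted p = 0.0564), its lowest control being replicate 3. Leaving out the SJ2 control replicate 2 brought this gene past both limits, at 1.48 (adjusted p = 0.00552), and leaving out the control replicate 3 brought it down to 0.45 (adjusted p = 0.377).

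In WMJJ the largest change among the 18 was that of Gohir.A07G217700. It stood at 44.6, 50.4 and 29.9 in the controls and at 18.7, 33.1 and 7.85 in the infested roots, ranges that overlap, at a log2 fold change of -1.23 (SE 0.36, limma adjusted p = 0.0164). It passed both limits without the infested WMJJ replicate 2, at -1.70 (adjusted p = 0.00106), and stood at -0.69 (adjusted p = 0.128) without the infested WMJJ replicate 3. Gohir.D13G004800 stood at 13.04, 10.5 and 15.5 in the controls and 21.0, 17.7 and 23.6 in the infested roots, which did not overlap, at 0.66 (SE 0.22, limma adjusted p = 0.0316). Its neighbour Gohir.D13G004300 gave -0.47 (SE 0.23, limma adjusted p = 0.156), so these neighbours gave no common direction.

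**Figure D5:**
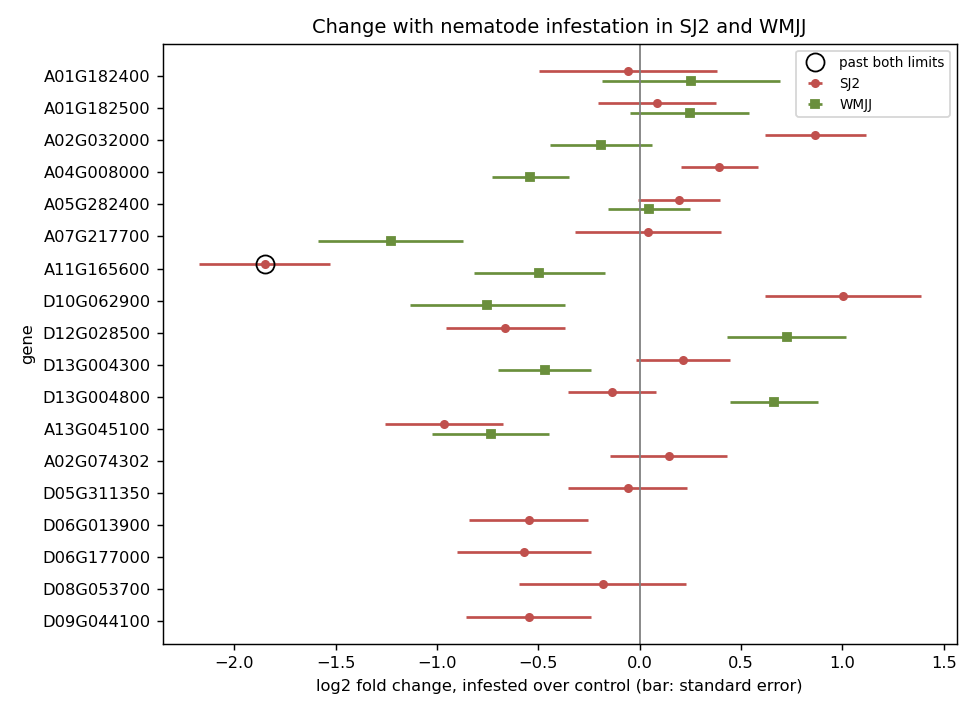
Log2 fold change of infested over control roots (x axis, bar 1 standard error, 3 libraries per group) for the 18 genes silent in NemX, in SJ2 (circles) and WMJJ (squares, left out for the 6 genes silent there). Only Gohir.A11G165600 in SJ2, at -1.85, is past both limits.

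The difference of the responses between WMJJ and SJ2 has a meaning only for the 12 genes that were not silent in WMJJ. By limma it was called for 0 of these 12, beside 5.08% of all genes, and 8 of the 12 had an unadjusted p below 0.05, beside 20.4% of all genes. Of these 8, 3 were positive and 5 negative, with no common direction. The SJ2 response is part of this difference and was bounded by the rule, so nothing is read from the shares of the 12. The values nearest to a call were those of Gohir.A04G008000 at -0.93 (SE 0.27, limma adjusted p = 0.0318), Gohir.D12G028500 at 1.39 (SE 0.42, limma adjusted p = 0.0389) and Gohir.D10G062900 at -1.75 (SE 0.54, limma adjusted p = 0.0467). Gohir.A04G008000 stood at 17.3, 18.4 and 23.7 in the SJ2 controls and 29.9, 24.2 and 24.0 in infested SJ2, and at 53.3, 48.4 and 55.4 in the WMJJ controls and 34.8, 29.7 and 44.5 in infested WMJJ, so its groups did not overlap in either line, with the controls below the infested roots in SJ2 and above them in WMJJ. The median log2 fold change of the 18 in SJ2 was -0.06, beside -0.04 over all genes, and among the 11 expressed in WMJJ it was -0.19 in WMJJ, beside -0.0039 over all genes.

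Gohir.D11G295850, the gene expressed in NemX, was not called in any comparison. In NemX its infested values of 3.81 to 4.58 overlapped the lowest control, at a log2 fold change of -0.81 (SE 0.38, limma adjusted p = 0.279, unadjusted p = 0.0472), in a background of 1.23% of genes called in NemX. The difference of its responses, WMJJ minus NemX, was 1.28 (SE 0.54, limma adjusted p = 0.233), with 1.46% of all genes called in that comparison. In WMJJ the gene stood at 0 to 0.821, near the 0.5 added before the log2, so this difference is hardly readable.

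The limits of the rule fell close to several genes. Just inside the limit of silence in NemX were Gohir.A01G182500 with a highest value of 0.330 and Gohir.A01G182400 with 0.256, and just outside it Gohir.A02G037900 with 0.507 and Gohir.A03G148700 with 0.803. Just inside the limit of expression in SJ2 were Gohir.D09G044100 with a lowest value of 3.38 and Gohir.D06G013900 with 3.47, and just outside it Gohir.D12G204900 with 2.78 and Gohir.D05G374500 with 2.55. In the other direction Gohir.A02G178800, with a highest SJ2 value of 0.741, and Gohir.D05G373750, with 0.864, were the nearest outside the limit of silence, both by their value in the infested SJ2 replicate 3. Outside the limit of expression in NemX the nearest were Gohir.A13G194500, with a lowest value of 2.52, and Gohir.D01G143966, with 2.24.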

How the data were processed

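Root libraries of SJ2, NemX and WMJJ, control or RKN-infested, were prepared as 3 per group. According to the methods and the submitters' processing notes, the paired-end reads were checked with FastQC 0.11.9, trimmed with Trimmomatic 0.39, pseudo-aligned with kallisto 0.46.1 against transcripts of TM-1 (UTx v2.1) and summed to genes with tximport, and edgeR 3.13 was used. Pseudo-alignment divides reads among close copies, so reads of A and D homoeologs can be split between them. The deposited table of 54508 genes in 18 libraries holds signal values that the authors had normalized before deposit. They are near CPM with a library factor on top, and how it was set is not given in the sources used here. About 1 in 3 samples was prepared with another kit according to the methods, and which ones is not stated. The methods also name a MiSeq and a HiSeq sequencer, without saying which libraries ran on which.

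Every column was matched to its library by name. Of the low values, 64.8% to 71.9% lay within 5% of a whole multiple of the smallest step, so reads were not recovered and no count test was run. A quasi-likelihood test on counts had been planned. Limma 3.58.1 in R 4.3.3 took its place, on log2 of the value plus 0.5, with 1 coefficient per group, an intensity trend and Benjamini-Hochberg adjustment within each comparison. Genes with a mean under 1 (7695 of them) were left out. Calls needed a log2 fold change over 1 in size with an adjusted p under 0.01. All 19 genes passed the filter on the mean, which for genes silent in one line rests on the line that expresses them. The fit was tested on simulated data.

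The silent and expressed genes, the limits and the lists were chosen with earlier results of these data known. Gene order was taken from the numbers in the identifiers and was not checked against an annotation, and no sequence was used. The genes named were, per direction, the 10 with the highest mean, the members called or nearest to a call, those that stand together on a chromosome, those on A11, D11 and D02, those nearest each limit, and the pair of TIR-NBS-LRR genes. Genes named outside this rule were chosen after their values were seen: the genes around the runs, the 11 that passed without 1 library, and other members named for their state in WMJJ. Tables were handled with pandas 2.3.3 in Python 3.11.15.

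Alternatives were other limits, other scalings, treatments apart, leaving out each library, other pseudocounts and filters, no trend, a replicate block and other thresholds. A term for the deepest library of each group, silence as at most 1 read, and infested libraries without the infested SJ2 replicate 3, were added after the data had been seen. Deviations from the group mean were correlated between same-numbered control and infested libraries. For replicates 1, 2 and 3 the correlations were 0.087, 0.106 and 0.357 in SJ2 and 0.072, 0.180 and 0.442 in WMJJ. In NemX they were -0.190, 0.0038 and -0.224. In no line were all 3 above 0.1, so the replicate numbers were not taken to pair the samples. Replicate 3 of SJ2 and of WMJJ did deviate together between treatments, and the replicate block is given as an alternative.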

Additional observations from a re-analysis of the deposited data

How the results depend on the processing

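The count of genes silent in SJ2 and expressed in NemX (1) was unstable. It was 0 with a silence limit of 0.25, with every SJ2 value at 0, with an expression limit of 5 and with at most 1 read, 6 with a silence limit of 1, 3 with an expression limit of 2, 53 from control and 4 from infested libraries (26 without the infested SJ2 replicate 3), and 1 to 12 with each library left out, the 12 without the infested SJ2 replicate 3. Of those genes, the number expressed in WMJJ was 3 with a silence limit of 1 and 1 with an expression limit of 2 (0 to 6 with each library left out), the number silent there was 1 with a silence limit of 1 (0 to 2), and the number between was 2 with a silence limit of 1 or an expression limit of 2 and 0 with a silence limit of 0.25 or an expression limit of 5 (1 to 4). With a silence limit of 0.25 the count of genes silent in NemX (18) was 13, and with a limit of 1 it was 21. It was 12 with every NemX value at 0, 23 with an expression limit of 2 and 10 with an expression limit of 5. From control libraries it was 32 and from infested libraries 25, or 31 without the infested SJ2 replicate 3. With each library left out, which can only add genes, 18 to 20 genes passed. Of these, 11 to 12 were expressed and 6 to 7 silent in WMJJ with each library left out, 1 silent with an expression limit of 5, and between the limits were 3 with a silence limit of 1, 4 with an expression limit of 2, 2 with equal totals and 1 to 3 with each library left out.

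Among the 18 genes (12 not silent in WMJJ), the number called in SJ2 (1) was 2 with equal totals and 1 to 2 with each library left out. In WMJJ (0) it was 1, Gohir.A07G217700, with the replicate block, with the term for the deepest library and at an adjusted p below 0.05, and 0 to 1 with each library left out. For the difference between WMJJ and SJ2 (0) it was 1, Gohir.D10G062900, with the replicate block, 2 with the term for the deepest library and at an adjusted p below 0.05, with Gohir.D12G028500 added, and 0 to 1 with each library left out. Each of these genes kept the sign of its log2 fold change in every alternative, and Gohir.A11G165600 was called in SJ2 in each of them, from -2.18 to -1.59.

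Over all genes, the calls in NemX (578) were 376 without the trend, 1164 at an adjusted p below 0.05 and 252 to 438 with each library left out. Those in SJ2 (6557) were 5500 to 6514 and those in WMJJ (4887) 3843 to 4751 with each library left out. For WMJJ minus NemX (684) they were 315 without the trend, 1629 at an adjusted p below 0.05, 1210 with the term for the deepest library and 296 to 878 with each library left out, and for WMJJ minus SJ2 (2376) 3718 at an adjusted p below 0.05 and 1877 to 2575. A group left with 2 libraries is assumed to vary like the others. With the replicate block the 5 comparisons gave 717, 6805, 5125, 874 and 2668 calls. Equal totals moved the median log2 fold change of all genes in SJ2 from -0.04 to -0.21, and the median of the difference between WMJJ and SJ2 from 0.05 to 0.20, where the calls went from 526 up and 1850 down to 849 up and 1485 down.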
